A study of Mus musculus with 6 samples.

Results

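Binding of GLI3R near the 3 MYC family genes Mycn, Myc and Mycl, and near Ddx1, the coding neighbour of Mycn, was read from ChIP-seq peak lists. GLI3R is the repressor form of GLI3, a transcription factor at the end of the Hedgehog pathway. The cells were cardiac progenitors differentiated from mouse embryonic stem cells of the A2Lox.cre strain, in a line named GLI3R-FTA, and were harvested on day 6. All groups came from this line, so every library carried the tagged GLI3R transgene. The induced group received 500 ng/ml doxycycline from day 5 to day 6, for 24 h, and the control group was untreated. Each group had a pair of pull-downs on streptavidin beads, which recover the protein through its Avi-tag, and 1 input library, giving 6 libraries. The files hold 1 peak list per condition, so no peak has a replicate error, and no test between conditions was made. The members were all peaks with a summit within 300 kb of Mycn or Ddx1, or within 100 kb of Myc or Mycl, on mm10. The rule found 12 of 8019 peaks, 7 of 3640 in the doxycycline list and 5 of 4379 in the untreated list. The peaks themselves chose the members, so their positions and strengths are given as a description. A protein overexpressed from a transgene can occupy sites that its normal level does not reach, and the peak lists hold no expression values against which the cell type label could be checked.

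Mycn, Myc and Mycl encode basic helix-loop-helix leucine zipper transcription factors that bind DNA as dimers with MAX and drive growth and cell division. Hedgehog signalling is known to raise Mycn in neural precursors, where GLI factors act on the gene, and Mycn is needed for growth of the embryonic heart wall. Ddx1 encodes a DEAD-box RNA helicase of the tRNA ligase complex and is often amplified together with MYCN in neuroblastoma.

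The doxycycline list held 6 peaks around Mycn and Ddx1, 1 peak inside Mycl and 0 near Myc. The untreated list held 2 peaks around Mycn and Ddx1, 2 around Mycl and 1 near Myc, with pileups of 4 to 6 fragments. None of the 12 peaks overlapped a peak of the other list by 1 bp or more, as was the case for 98.0% of all doxycycline peaks and 98.3% of all untreated peaks. Around Mycn and Ddx1 the doxycycline peaks fell into 3 places, which were the Mycn gene itself, a middle stretch of the interval that separates the genes, and the noncoding gene Gm24208 next to Ddx1.

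Annotated start sequences close to the doxycycline peaks at Mycn, Mycl and Gm24208 are shown here so that the neighbourhood of these peaks can be read. They are the 250 bases upstream of the RefSeq starts of Mycn, Mycl and Gm24208 on GRCm38.p6, the assembly of mm10, read 5′ to 3′ on the strand of the gene. For Gm24208, which has 2 starts in the promoter table, the one nearer to the peak was used. The start used for Mycl lies inside its RefSeq interval, which begins at 122995588, and the whole Mycl sequence falls within that interval. No peak lies over any of them. Distances to the peaks are given from the full RefSeq windows of 300 bases, which take in the first 50 bases after the start as well. The doxycycline peak upstream of Mycn began 0.179 kb beyond the window of Mycn, the peak in Gm24208 ended 0.195 kb short of its window, and the peak in Mycl began 0.551 kb past that of Mycl. Capitals mark CCACCC on either strand, the inner letters of the 9-base GLI motif GACCACCCA, and in Mycl the longer match GACCACCC.
Mycn, minus strand, chr12:12941837-12942086: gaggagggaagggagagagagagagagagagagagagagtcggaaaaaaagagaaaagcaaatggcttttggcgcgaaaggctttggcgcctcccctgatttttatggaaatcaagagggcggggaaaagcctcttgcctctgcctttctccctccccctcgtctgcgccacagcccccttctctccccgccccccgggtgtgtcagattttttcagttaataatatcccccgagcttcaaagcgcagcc
Mycl, plus strand, chr4:122995681-122995930: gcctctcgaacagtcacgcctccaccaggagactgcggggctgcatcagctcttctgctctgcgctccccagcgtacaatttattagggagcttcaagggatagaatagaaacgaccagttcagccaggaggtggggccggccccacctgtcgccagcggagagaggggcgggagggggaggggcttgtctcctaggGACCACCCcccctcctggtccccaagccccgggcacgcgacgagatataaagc
Gm24208, minus strand, chr12:13181177-13181426: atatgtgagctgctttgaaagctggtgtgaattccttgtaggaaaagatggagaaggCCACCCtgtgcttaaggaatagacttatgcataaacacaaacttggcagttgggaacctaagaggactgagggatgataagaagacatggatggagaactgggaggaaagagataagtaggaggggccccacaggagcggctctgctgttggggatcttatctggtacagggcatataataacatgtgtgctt
The full 9-base motif GACCACCCA was not found, on either strand, in the 300-base windows of Mycn, Ddx1, Mycl or Gm24208. It was in 0.246% of 32544 such windows. The shorter GACCACCC, searched after the sequences had been seen, was in 0.805% of windows and had a match in that of Mycl, with its first base at -53 from the start. The 6-base CCACCC, contained in both longer motifs and also searched afterwards, was in 31.6% of windows. It had a match at -108 in Ddx1, at -51 in Mycl within the longer match, and at -193 in Gm24208. In Mycn the match was on the opposite strand and past the start, first base at 28, in this stretch.
Mycn, minus strand, chr12:12941795-12941824: ctgtctggacgcgctGGGTGGatgcggggg
The MYC binding motif CACGTG, present in 7.17% of windows, was not found in any of these. These letters describe the windows only, since the sequence under the peaks was not analysed here.

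The first question was where the induced GLI3R was found at Mycn. Mycn (gene ID 18109) lies on chromosome 12 from 12936093 to 12941836 and is read from the minus strand. A peak inside the gene (12939078 to 12939331) had its summit 2.64 kb downstream of the start. Its fold enrichment was 8.68, with a −log10 q of 9.33. Fold is the authors' ratio of the fragment pileup at the summit to the local expectation, with 1 added to each. The pileup, worked back from the authors' fold and p, was 12 fragments, with a 95% Poisson interval of 6.20 to 20.96. Of all doxycycline peaks, 10.9% had a −log10 q at least as high. The other peak at Mycn lay just upstream of it (12942265 to 12942617), with its summit 0.694 kb from the start. It was enriched 7.21-fold, its −log10 q was 6.58 and its pileup 10 fragments (4.80 to 18.4). The summits of this pair were 3.33 kb apart. Their intervals of pileup overlapped, and a difference in strength between them was not tested. The untreated list had no summit within 225 kb of either.

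Mycn and Ddx1 (gene ID 104721, chromosome 12, 13219307 to 13249174, minus strand) are separated by 277 kb without another coding gene. This interval is upstream of Mycn and beyond the end of Ddx1. It held 5 doxycycline summits, the one just upstream of Mycn included, and 0 untreated summits. The interval's first 156 kb past that summit had no peak in either list. Next came the weakest of the group (13098483 to 13098619), at 157 kb from Mycn and 121 kb from Ddx1. It was enriched 5.06-fold, from 6 fragments (2.20 to 13.06), at a −log10 q of 3.07, and 71.4% of doxycycline peaks had a −log10 q at least as high. A further peak 22.04 kb on (13120437 to 13120606), at 98.7 kb from Ddx1, reached 6.58-fold, with 8 fragments at the summit (3.45 to 15.8) and a −log10 q of 5.34. These lie on either side of the noncoding genes Gm35350 and Gm35298, at 1.77 and 3.85 kb from the nearer of them, and inside neither.

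The highest fold of the locus was found nearer to Ddx1 than to Mycn, although the pileup interval of that peak overlaps those of the peaks at Mycn. A pair of peaks lay there, both inside Gm24208, a noncoding gene of 19.4 kb on the minus strand whose function is not described here. The stronger (13180554 to 13180932) was enriched 13.9-fold, from 19 fragments (11.4 to 29.7), at a −log10 q of 20.6. It ranked 79 of 3640 by −log10 q, and its summit lay 0.435 kb downstream of the start of Gm24208, 38.6 kb from Ddx1 and 239 kb from Mycn. The weaker (13176320 to 13176641), 4.21 kb away and 42.8 kb from Ddx1, was enriched 10.2-fold, from 13 fragments (6.92 to 22.2), at a −log10 q of 12.3. The doxycycline list had no summit inside Ddx1 or within 10 kb of it. A peak at such a distance is not thereby assigned to Mycn, Ddx1 or Gm24208.

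**Figure D1:**
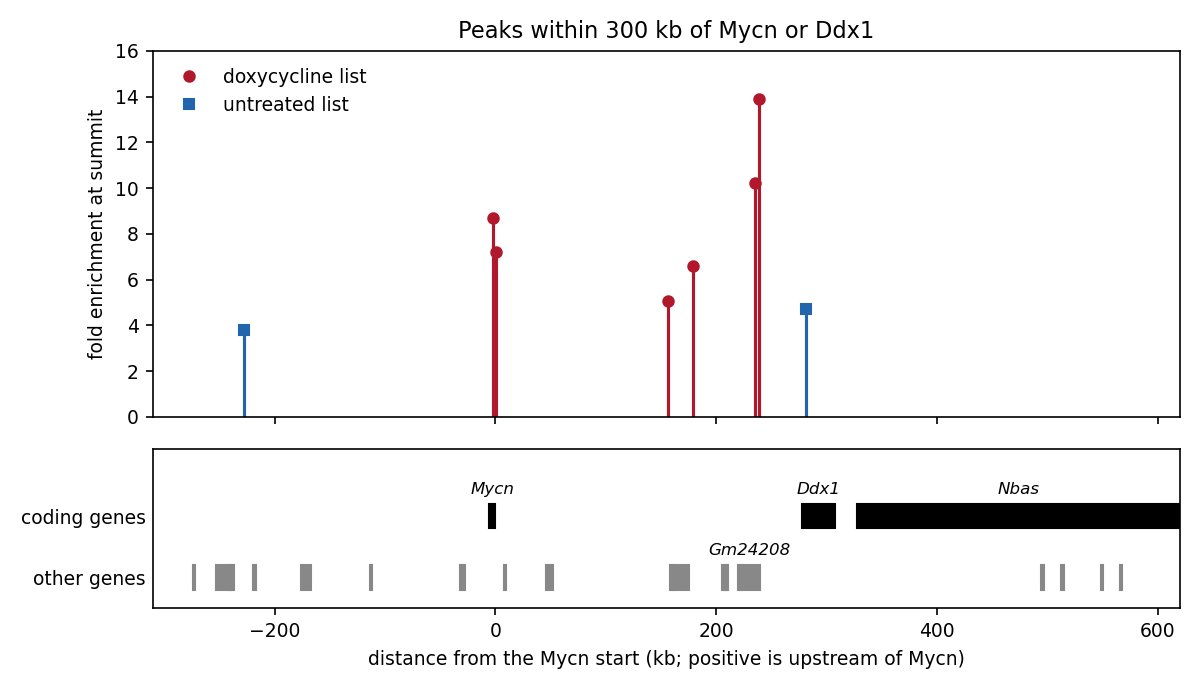
Fold enrichment at each summit (vertical axis) against distance from the Mycn start in kb (horizontal axis), with doxycycline peaks as red circles and untreated peaks as blue squares; coding genes are black and other annotated genes grey in the lower strip. The 6 doxycycline peaks, 5.06-fold to 13.9-fold, lie from Mycn to Gm24208, and the 2 untreated peaks, 3.78-fold and 4.72-fold, lie outside them.

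The untreated peaks of the locus had other positions. One (13222849 to 13223028) lay inside Ddx1 and was enriched 4.72-fold, from 5 fragments (1.62 to 11.7), at a −log10 q of 2.52. The other (12713821 to 12714004) lay 222 kb downstream of Mycn and was enriched 3.78-fold, from 4 fragments (1.09 to 10.2), at a −log10 q of 1.44. The latter was near the bottom of its list, where 99.9% of peaks had a −log10 q at least as high. The closest untreated and doxycycline summits of the locus were 42.2 kb apart. The smallest pileup in the untreated list was 4 fragments, which is 3.93-fold at its usual expectation of 0.272 fragments. The lowest fold in that list was 3.72. A place without an untreated peak is therefore one where the limit for listing a peak was missed. In the doxycycline list the usual expectation was 0.368 fragments, and the lists' depths, which are unknown, may differ.

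The group lay far from other doxycycline peaks. Its 6 summits spanned 242 kb, of which 156 kb, past the pair at Mycn, held no peak. The nearest doxycycline summits beyond the group were 3359 kb away on the Mycn side, nearest to Osr1, and 1410 kb away on the Ddx1 side, nearest to Lratd1. No doxycycline summit was therefore close to the limit of 300 kb, the farthest from both genes being at 121 kb. The untreated peaks nearest to the limit were at 222 kb inside it and 437 kb outside it (3.93-fold). Of the 6 peaks, 4 had another doxycycline summit within 5 kb, against 6.21% of all doxycycline peaks and 2.95% of all untreated peaks. These 4 are the pair at Mycn and the pair in Gm24208, each counted from both sides. Of the 6, 5 had a −log10 q of at least 5, against 33.3% of all doxycycline peaks. Neither of the 2 untreated peaks did, against 9.41% of their list. Widths ran from 137 to 379 bp, with a median of 160 bp over the doxycycline list. The local expectation ran from 0.368 to 0.526 fragments, and 0.368 was the usual value in that list.

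Set beside all 21631 protein-coding genes of the 20 chromosomes in the lists, Mycn and Ddx1 had many doxycycline summits. Within 300 kb, 61.7% of genes had at least 1 doxycycline summit and 61.4% at least 1 untreated summit. Mycn and Ddx1 had 6 doxycycline summits each, a number reached by 202 genes (0.934%), many of which share the same peaks. Of all genes, 0.795% had as many with no more untreated summits than the 2 of Mycn, whereas 27.2% had 2 or more untreated summits. A doxycycline fold of 13.9 or more within 300 kb was found at 2.69% of genes. Mycn has 1 coding gene, Ddx1, within 300 kb. Of the 789 genes (3.65%) with no more coding neighbours than that, 54.6% had a doxycycline summit within 300 kb, and 1 (0.127%), Mycn, had 6 or more. This comparison was not planned, was cut at the count of Mycn itself, and leaves out Ddx1, which has 2 coding neighbours. In the whole doxycycline list, 6 or more summits within 242 kb were found in 15 separate stretches, with overlapping windows merged into 1 stretch. The untreated list had 1 such stretch, nearest to Alkbh8, which also had one in the doxycycline list. With at least 5 summits of −log10 q 5 or more, 6 doxycycline stretches were left, nearest to Mycn, Hmga2, Smad6, Smc3, Ercc6l2 and Alkbh8. These places were picked by their peaks, so the counts are no test of Mycn.

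**Figure D2:**
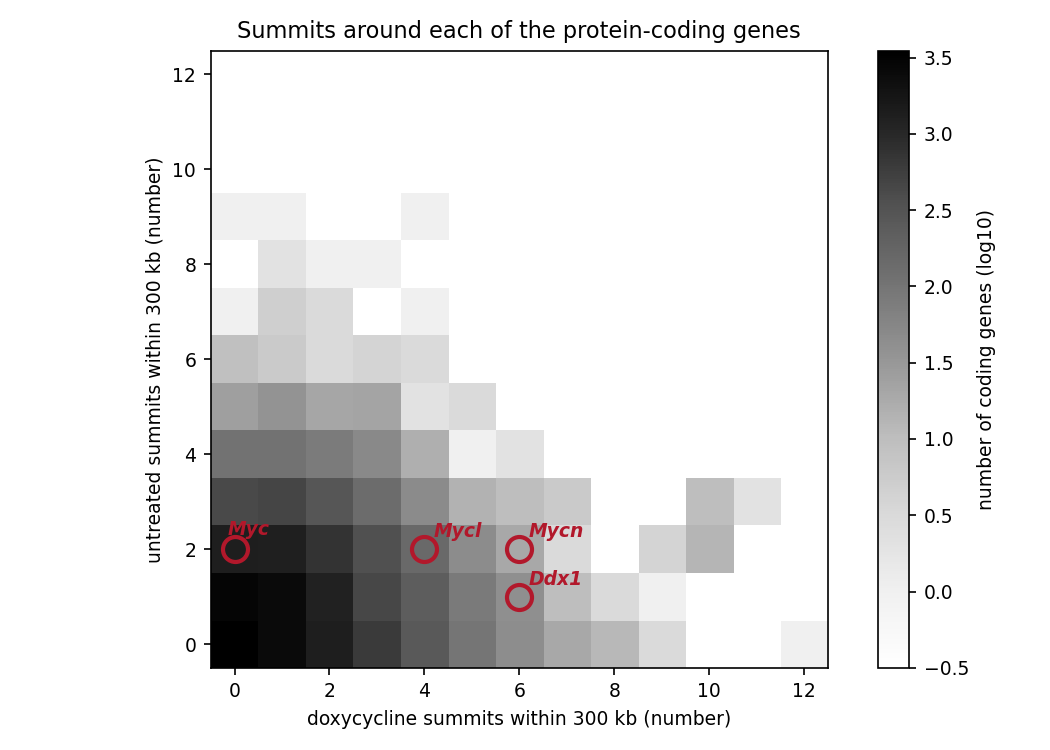
Number of untreated summits (vertical axis) against number of doxycycline summits (horizontal axis) within 300 kb of each of 21631 protein-coding genes; darker cells hold more genes, on a log10 scale, and red rings mark the 4 named genes. Mycn (6 doxycycline, 2 untreated) and Ddx1 (6 and 1) lie to the right of most genes, Mycl (4 and 2) in between, and Myc (0 and 2) on the left edge.

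The genes whose pattern was most like that of Mycn were found by distance over 4 values, the number of summits and the highest fold within 300 kb in each list, on a log2 scale. They were Thsd4 (distance 0.0015), with 6 doxycycline and 2 untreated summits and a highest doxycycline fold of 13.9, then Gm12248 (0.311), Gtf2f2 (0.320), Vegfa (0.336) and Usp48 (0.394). Vegfa, which encodes a growth factor for blood vessels, had 7 doxycycline summits of up to 12.4-fold and 2 untreated summits of up to 5.50-fold. Likeness here covers the number and height of peaks in a pair of lists and nothing else.

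Mycl (gene ID 16918, chromosome 4, 122995588 to 123002490, plus strand) had its doxycycline peak inside the gene (122996531 to 122997204), the widest member at 674 bp. The interval held 2 summits. More than 1 summit was found in 1.26% of all doxycycline intervals and 0.502% of untreated ones. The stronger summit, 1.10 kb downstream of the promoter-table start, was enriched 10.96-fold, from 14 fragments (7.65 to 23.5), at a −log10 q of 13.8. The weaker, at 0.675 kb and 0.427 kb from the other, was enriched 8.04-fold, from 10 fragments (4.80 to 18.4), at a −log10 q of 7.95. By its stronger summit the peak ranked 165 of 3640. It was thus second in −log10 q among the 7 doxycycline members, after the peak in Gm24208, and stronger than either peak at Mycn, although the pileup intervals of these peaks overlap.

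The untreated peaks around Mycl lay outside the gene. One (122929441 to 122929617) was 66.1 kb from Mycl and 17.3 kb from Mfsd2a, a lipid transporter gene, with a 5.50-fold enrichment and a pileup of 6 fragments (2.20 to 13.06). The other (123009610 to 123009777) was 7.20 kb past the end of Mycl and 6.85 kb before Trit1, a tRNA modifying enzyme gene, with a 3.93-fold enrichment and a pileup of 4 fragments (1.09 to 10.2). The closer of them was 12.7 kb from the doxycycline summit. Just outside the limit of 100 kb, at 146 kb, lay a doxycycline peak inside Ppt1 (10.2-fold), a gene of lysosomal protein breakdown. With the limit at 300 kb, Mycl had 4 doxycycline summits, a number reached by 5.30% of coding genes, and 1 of the added ones lay inside Heyl, a Notch target gene, at 8.86-fold and 231 kb from Mycl.

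Myc (gene ID 17869, chromosome 15, 61985341 to 61990361) had no doxycycline summit. The nearest, a 4.39-fold peak with the list's smallest pileup of 5 fragments, was 576 kb away. The single untreated member (62002306 to 62002442) lay 12.01 kb from Myc, between Myc and the noncoding gene Pvt1, enriched 4.09-fold from 5 fragments (1.62 to 11.7), at a −log10 q of 1.48. The next untreated peak, outside the limit at 227 kb, lay inside Pvt1 at 4.64-fold. No doxycycline summit below 5 fragments was listed, so binding under that level at Myc was not detectable at this depth. The limit at Myc itself was not computed and may be higher. The untreated member there had a local expectation of 0.469 fragments, above that list's usual 0.272.

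**Figure D3:**
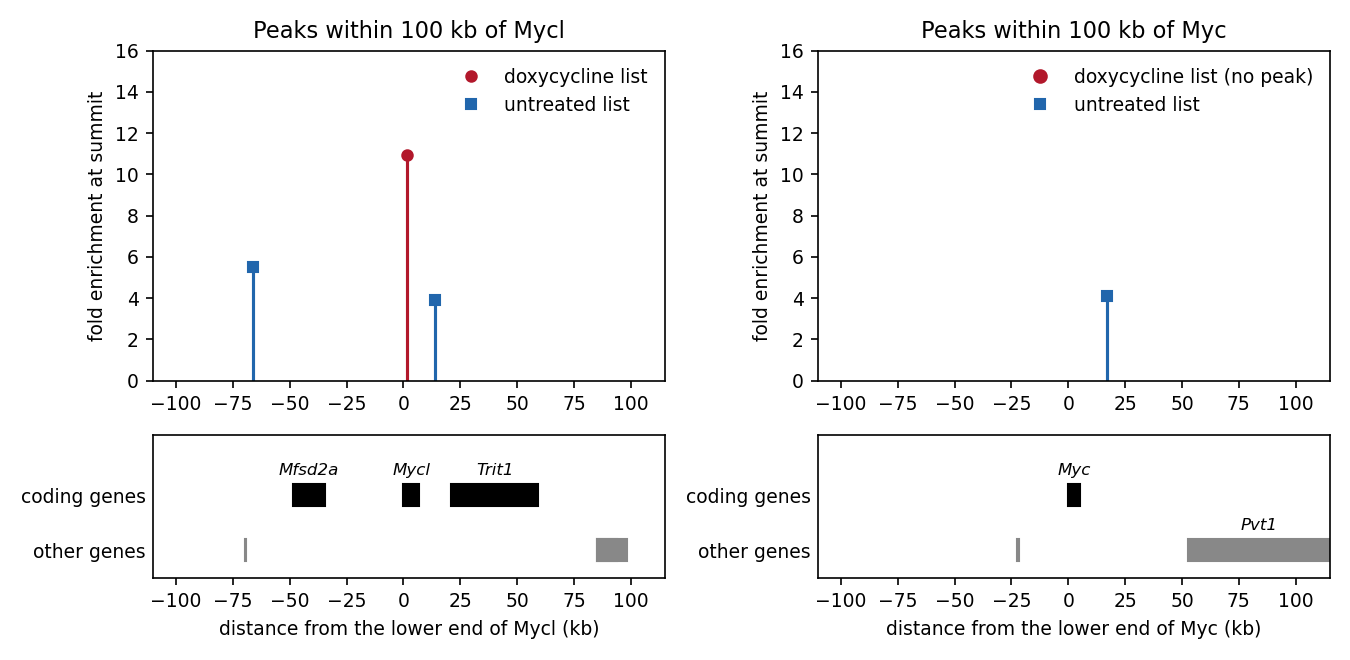
Fold enrichment at each summit (vertical axis) against distance in kb from the lower end of Mycl (left) and Myc (right), with doxycycline peaks as red circles and untreated peaks as blue squares, above the annotated genes. The doxycycline peak of 10.96-fold lies inside Mycl between the 2 untreated peaks, and Myc has the untreated peak of 4.09-fold alone.

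Compared across the 3 MYC family genes, doxycycline summits inside the gene or within 10 kb of it numbered 2 at Mycn, 1 at Mycl and 0 at Myc. Untreated summits numbered 0, 1 and 0. No share over all coding genes is given at 10 kb, so these counts set none of the 3 genes apart. Within 50 kb, where doxycycline summits were found at 20.3% of coding genes and untreated summits at 19.1%, Mycn had 2 and 0, Mycl 1 and 1, Myc 0 and 1, and Ddx1 2 and 1. Of the 7 doxycycline members, 2 had their summit inside a coding gene, against 44.0% of the doxycycline list. The summit just upstream of Mycn was the single one within 1 kb of an end of a coding gene, against 8.65% of that list. Here gene ends are those of the RefSeq interval, and each peak counts by its best summit. Of the 5 untreated members, 1 was inside a coding gene, Ddx1, against 37.5% of the untreated list, and 0 were within 1 kb of a gene end, against 1.99%.

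**Figure D4:**
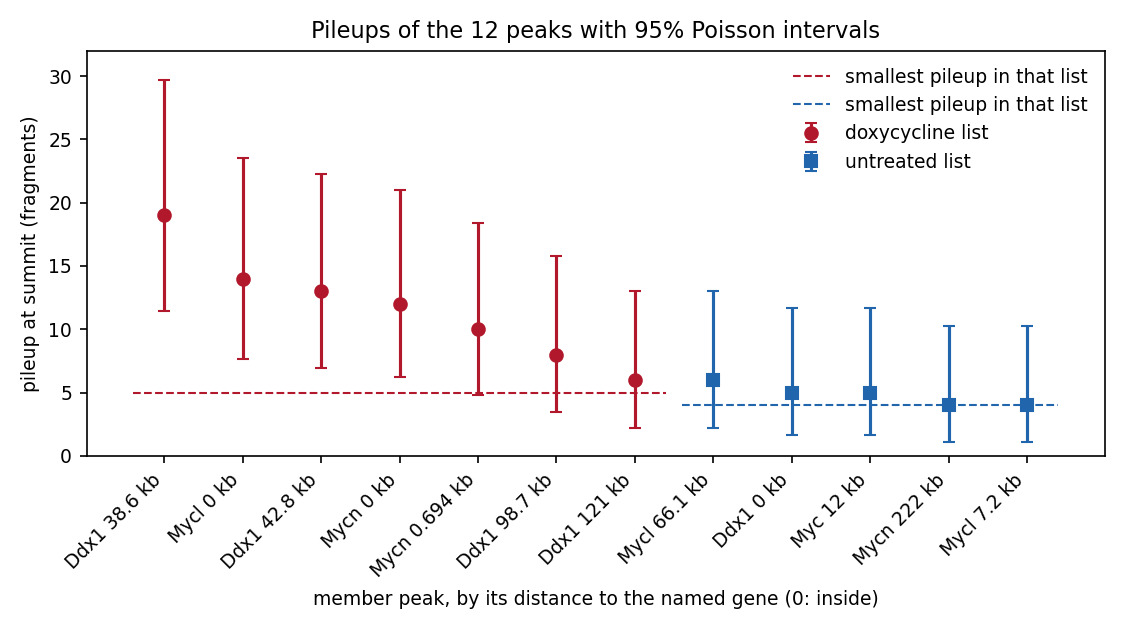
Pileup at the summit in fragments (vertical axis) for each of the 12 peaks, ordered by pileup within each list and named by distance to a gene (horizontal axis); bars are 95% Poisson intervals, which cover counting error only, and dashed lines mark the smallest pileup in each list. Doxycycline pileups run from 19 down to 6 fragments and untreated ones from 6 to 4, and neighbouring intervals overlap.

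The order of strength among the doxycycline members was not tested, and overlap of intervals is not itself a test of it. Their pileups were 19, 14, 13, 12, 10, 8 and 6 fragments, and the intervals of all 21 pairs overlapped, that of the strongest (11.4 to 29.7) and the weakest (2.20 to 13.06) included. The untreated members had pileups of 6, 5, 5, 4 and 4 fragments. With a −log10 q of at least 5, 6 of the 7 doxycycline members and 0 of the 5 untreated members were left. Over all peaks the shares were 33.3% of the doxycycline list and 9.41% of the untreated list. The untreated count of 0 is too small to set apart from the latter share.

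The next counts concern genes that work with the MYC proteins. Of 10 genes of the MAX network, doxycycline summits lay within 50 kb of 3 and untreated summits within 50 kb of 3, against the 20.3% and 19.1% of all coding genes. Near doxycycline peaks were Mxi1 (5.85-fold, 45.4 kb away) and Mxd4 (5.12-fold, 38.5 kb), which encode MAX partners that oppose MYC, and Mlxip (5.12-fold, 46.6 kb), a glucose-responsive partner of MLX. All 3 peaks had pileups of 6 or 7 fragments and another gene closer by. Untreated peaks lay inside Mlxip (7.07-fold, 8 fragments) and inside its relative Mlxipl (4.72-fold, 5 fragments), and 20.1 kb from Mxd4 (5.29-fold, 6 fragments). Max itself, the shared partner, had no summit within 50 kb in either list. With a −log10 q of at least 5 the counts were 0 and 1, and within 100 kb they were 5 and 4. Shares of all coding genes at these settings are not given, and the 20.3% and 19.1% do not apply to them. The median number of doxycycline summits within 300 kb was 2.5 over the 10 genes, 1 over all coding genes, and 6 at Mycn. The untreated median was 1.5 over the 10 genes and 1 over all coding genes. These 10 genes had 6 to 26 other coding genes within 300 kb, and Mycn had 1.

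Of 9 genes that control the stability of MYC proteins, doxycycline summits lay within 50 kb of 2 and untreated summits within 50 kb of 0, where 20.3% and 19.1% of all coding genes had one. The doxycycline count is near that share. Usp28, a deubiquitinase that keeps MYC from breakdown, held a peak within its limits (chromosome 9, 48987019 to 48987185), enriched 8.04-fold from 10 fragments, at a −log10 q of 7.95. Gsk3b, a kinase that marks MYC for breakdown, had one 37.2 kb away at 4.38-fold. Fbxw7, Aurka, Huwe1, Usp7, Plk1, Trim32 and Skp2 had none within 50 kb. Of the 5 genes of the tRNA ligase complex in which Ddx1 works, Rtcb, Fam98a, Fam98b, Rtraf and Zbtb8os, 0 had a summit within 50 kb in either list, a count too small to set apart from the shares of 20.3% and 19.1% over all coding genes. Their median number of doxycycline summits within 300 kb was 1, that of all coding genes, against 6 at Ddx1.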

How the data were processed

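ChIP-seq peak lists of 1 doxycycline and 1 untreated condition were used, with samples grouped by title. Their titles name GLI3R, although the labels' treatment text names GLI1. The submitters' processing notes list MACS2 2.1.1, mm10, SAMtools 1.5 and Bowtie2 2.3.2, with settings and pooling of pull-downs not given in the sources used here. The authors deposited for every peak a fold enrichment, which is a ratio at the summit, and a −log10 p and −log10 q. The score they deposited repeats −log10 q and was left aside. These are the authors' values of single peaks.

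Rows sharing an interval were merged with the best summit kept (3725 doxycycline rows to 3640 peaks, 4428 untreated rows to 4379). Coordinates count from 1. Pileup and local expectation were solved from fold = (pileup + 1) / (expectation + 1) with p as the upper Poisson tail. Whole pileups matched −log10 p within 0.01 for 99.8% of peaks in each list and for all 12 members. Pileup intervals are exact 95% Poisson intervals that cover counting error only. Fragment totals were not analysed here, so depth is unknown.

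Genes came from RefSeq on GRCm38.p6, the assembly of mm10, with distances measured to the gene interval. Starts and strands came from the RefSeq promoter table, whose starts match the interval ends of Mycn and Ddx1. The start used for Mycl, just past base 122995930, lies inside its interval, which begins at 122995588. Exons and introns were not analysed here. The text names the 4 genes, genes in their windows or nearest to their peaks, genes of 3 lists with a summit within 50 kb, and the 5 genes most like Mycn (each over 1 Mb apart). The genes nearest to dense stretches and to outside peaks, and list genes without a summit, were named after their values were seen. A further gene of the lists is not reported here. The members and lists were chosen with earlier results of these data known. On simulated data, 100% of 2000 pileups and of summit counts over 21887 genes were recovered. The tools were scipy 1.17.1, pandas 2.3.3, numpy 2.4.6 and matplotlib 3.10.9 in Python 3.11.15.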

Additional observations from a re-analysis of the deposited data

How the results depend on the processing

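No paired analysis was possible because the files give a single list for each condition without replicate columns, and for the same reason no replicate could be left out. Of 42 alternatives, 26 gave the same count or one within 1.5 times it. The doxycycline count around Mycn and Ddx1, 6, was 5 with a −log10 q of at least 5 and with a window of 100 kb, and 6 with a pileup of at least 6 fragments, with every row counted and with a window of 500 kb. With a −log10 q of at least 5 the untreated counts were 0 around Mycn and Ddx1, 0 near Myc and 0 near Mycl, and with a pileup of at least 6 fragments they were 0, 0 and 1, fewer by construction. With narrower windows (100 kb, and 30 kb for Myc and Mycl) the untreated counts were 1 around Mycn and Ddx1 and 1 near Mycl. With wider windows (500 kb and 300 kb) Myc had 2 untreated and Mycl 4 doxycycline summits. With every row counted Mycl had 2 doxycycline summits. The share of coding genes with as many doxycycline summits as Mycn was 0.259% with a −log10 q of at least 5, where Mycn had 5, and 7.93% within 100 kb, where it had 2. For the MAX network the doxycycline count was 5 within 100 kb and 0 with a −log10 q of at least 5. The untreated count was 1 with that minimum. Shares of all coding genes at these MAX network settings are not given. The window of 100 kb for the lists of MYC stability and the tRNA ligase complex was chosen after seeing the data. No member was in both lists with summits within 500 bp or reciprocal overlap. With few fragments per peak, absence from a list does not show absence of binding.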
